A study of Mus musculus with 17 samples.

Results

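The histone variant H3.3 was examined at 10 genes of the Notch pathway in the newborn mouse lens, namely the ligands *Jag1*, *Jag2* and *Dll1*, the receptors *Notch1*, *Notch2* and *Notch3*, the nuclear effectors *Rbpj* and *Maml1*, and the targets *Hes1* and *Hey1*. The set was taken by name, all 10 genes were found among the 21938 protein-coding genes of the annotation (GENCODE vM21 on GRCm38, the assembly also called mm10), and each was given a window that holds the gene and 5 kb on each side. Chromatin of microdissected lens epithelium and of lens fibers had been immunoprecipitated with an antibody against H3.3, with 2 biological replicates per compartment. All 4 libraries came from mice labelled CD1 with no treatment, each from 150 pooled lenses and 12 µg of chromatin per the labels, so that no library stands for a single animal. The titles give day 1 after birth and the protocol day 0.5, and the study's methods give another number of lenses. For each library the authors deposited a list of islands, stretches of DNA in which ChIP reads exceed the local expectation, and the number of reads in each of them.

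Notch signalling passes between touching cells. A ligand of the Jagged or Delta family on one cell binds a Notch receptor on its neighbour, the receptor is cut first outside and then inside the membrane, and the freed intracellular domain enters the nucleus, where it joins the DNA-binding protein Rbpj and a Mastermind protein such as Maml1 to switch on genes of the Hes and Hey families. In the lens the pathway is known for keeping epithelial cells in a dividing state and for its part in the growth of secondary fibers, with *Jag1* made by cells that have begun to become fibers. H3.3 enters nucleosomes independently of the copying of DNA, above all at genes that are transcribed and at regulatory elements.

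Epithelium replicates 1 and 2 had 10389 and 14434 islands that cover 45.4 and 48.9 Mb, whereas fiber replicates 1 and 2 had 27059 and 35940 islands that cover 177.8 and 187.8 Mb. Epithelium libraries had 1331369 and 1430373 reads in islands, against 5041885 and 5359085 in fiber libraries. As the sequencing depth is unknown, the absence of an island means only that none was called. For 2 libraries per compartment the smallest p of an exact two-sided permutation test is 0.33, so each member is described by its value in every library and by whether the compartments overlap. In bulk chromatin, more cells with H3.3 at a gene and more H3.3 per cell cannot be told apart. Fiber markers followed the labels, as *Lim2*, a fiber membrane protein, and *Bfsp1*, a beaded filament protein, had no island in either epithelium library and were at least 95.3% covered in both fiber libraries. Epithelium markers did not follow the labels, as 4 of 5 (*Foxe3*, *Pax6*, *Cdh1* and *Pdgfra*) were also covered more in both fiber libraries and none was covered more in epithelium. *Foxe3* was 0% and 60.7% covered in epithelium and 88.5% and 86.6% in fibers, and *Gja1*, which overlapped, 5.12% and 12.5% and then 0% and 10.2%.

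All 10 members were covered by H3.3 islands over a larger share of their window in both fiber libraries than in both epithelium libraries, and none over a smaller share. This has to be read against the whole annotation, in which 45% of the 21938 genes were covered more in both fiber libraries and 0.67% less. Among the 14147 genes with an island in at least 1 library, as every member has, 69.8% were covered more. *Rbpj* and 5134 of these genes in all had islands in fiber libraries only and could not be covered less. The median gain of the members was 32.5 percentage points, from 8.35 for *Rbpj* to 66.7 for *Jag1*, that of the 14147 genes with an island was 16 percentage points, and that of all genes, of which 7791 had no island, was 4.72. Counted over the windows, 105 kb lay in an island of either epithelium library and 300 kb in an island of either fiber library. Of the epithelium bases, 95.5% were also inside a fiber island, against 78.5% in the windows of all protein-coding genes. Of the fiber bases 33.4% were inside an epithelium island, against 24.2% over all windows, and 111 kb lay in islands of both fiber libraries and of neither epithelium library. The replicates of epithelium shared 43.2% of their bases at the members and those of fibers 66.1%, with 23.8% and 51.1% over all windows.

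**Figure D1:**
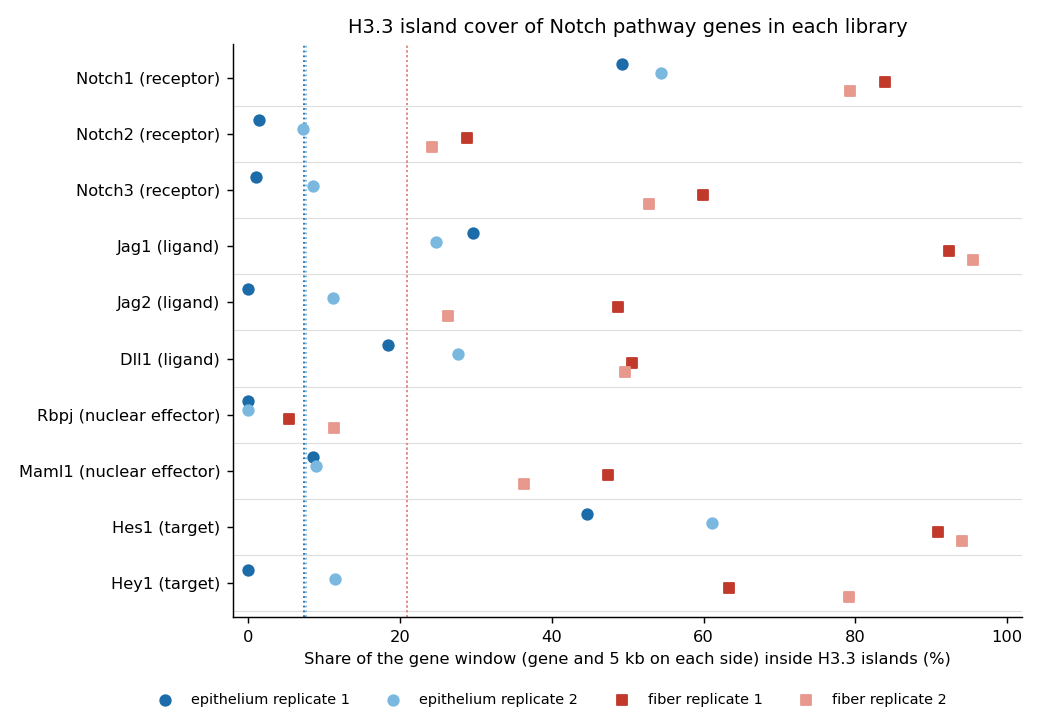
Share of each gene window inside H3.3 islands, in percent, with 1 point per library (circles for epithelium, squares for fibers) and the mean over all protein-coding genes of each library as a dotted line. Fiber points lie to the right of both epithelium points for all 10 genes, and the *Rbpj* points stay below the fiber mean.

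The order of the members by cover differed between the compartments. In fibers *Jag1* (93.9% ± 2.19, SD, n = 2) and *Hes1* (92.5% ± 2.22) led and could not be told apart, followed by *Notch1* (81.6% ± 3.23), *Hey1* (71.2% ± 11.2), *Notch3* (56.4% ± 5.05), *Dll1* (50.1% ± 0.725) and *Maml1* (41.9% ± 7.74), each of which lay below its predecessor in both libraries. *Jag2* (37.5% ± 15.9) and *Notch2* (26.6% ± 3.27) came next, and *Jag2* overlapped with both *Maml1* and *Notch2*. *Rbpj* (8.35% ± 4.22) was last in both fiber libraries. In epithelium *Hes1* (52.9% ± 11.6) and *Notch1* (51.8% ± 3.7) overlapped at the top, *Jag1* (27.2% ± 3.44) and *Dll1* (23.1% ± 6.52) overlapped below them, and *Maml1* had 8.78% ± 0.303. *Hey1*, *Jag2*, *Notch3* and *Notch2* had means between 4.36% and 5.76% with SDs between 4.05 and 8.14, so their order in epithelium is not resolved, and *Rbpj* had none.

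**Figure D2:**
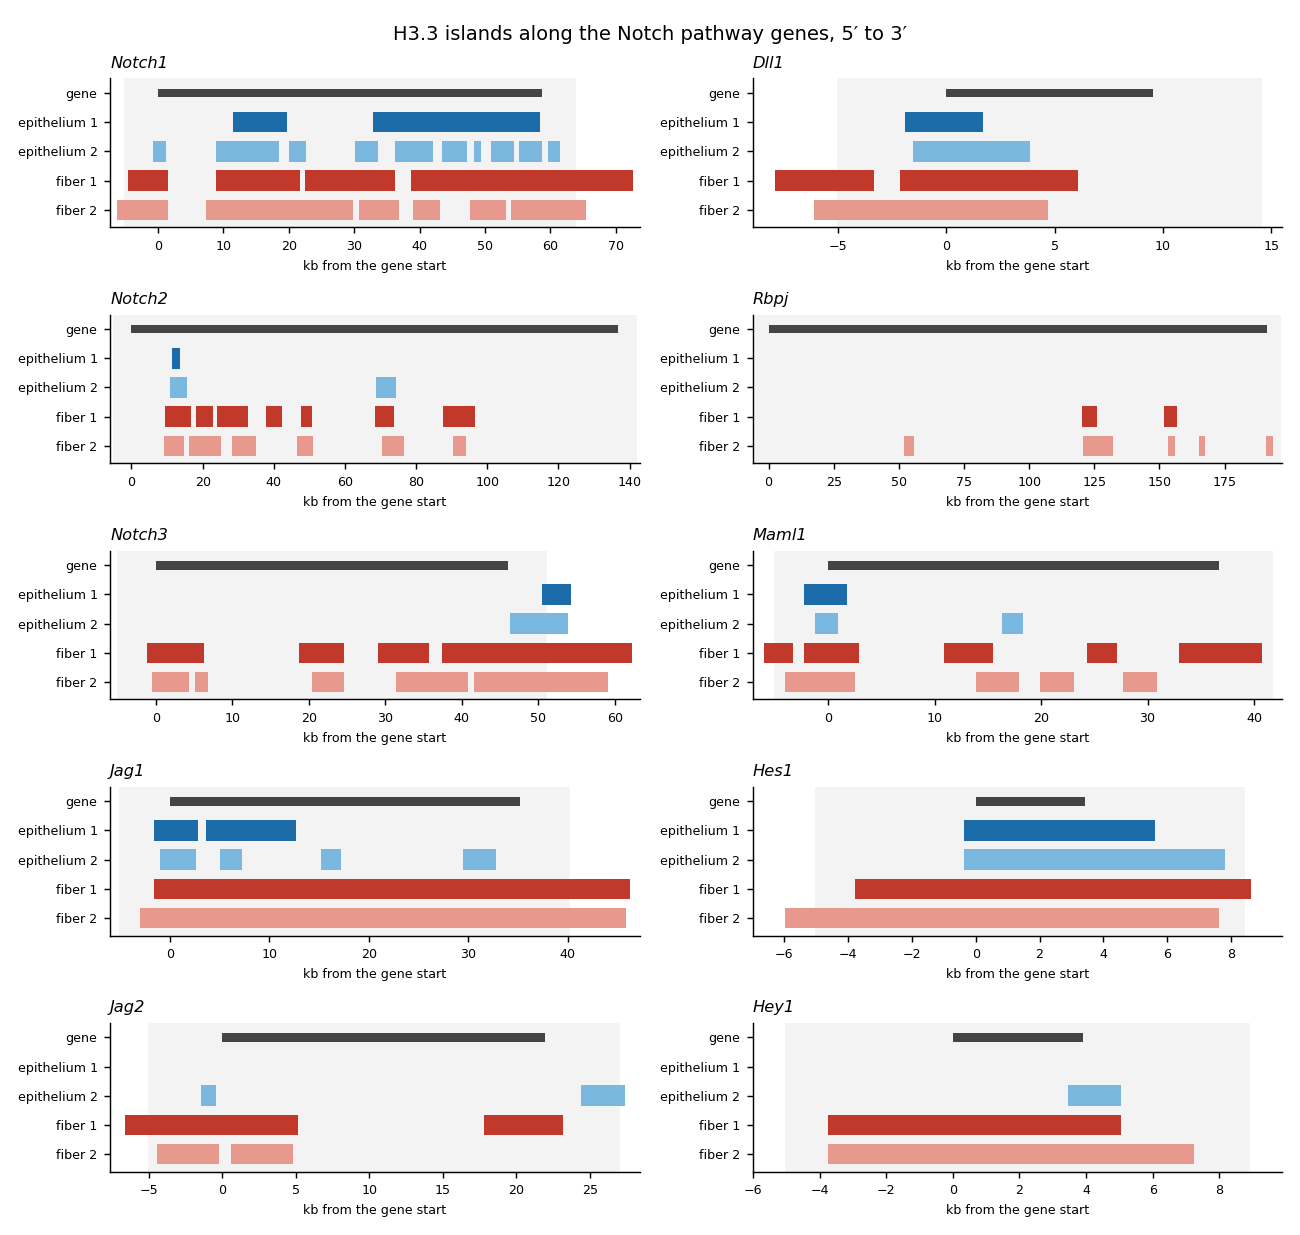
H3.3 islands along each of the 10 genes, drawn 5′ to 3′ in kb from the gene start, with the gene as a dark bar, the window shaded and a lane for each library. Fiber lanes show 1 unbroken island over *Jag1*, islands at the start of *Notch3* that both epithelium lanes lack, and no island over the start of *Notch2* in any lane.

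The members differed in whether an island lay over the gene start. The start of *Jag1*, *Dll1*, *Maml1* and *Hes1* was inside an island in all 4 libraries. The start of *Notch3* and *Hey1* was inside an island in both fiber libraries only, and that of *Notch1* in 3 libraries. That of *Jag2* was inside an island in fiber replicate 1 only. The starts of *Notch2* and *Rbpj*, as the annotation places them, were in no island. In all, 4 members had the start covered in both epithelium libraries, where 6.83% of all genes did, and 7 had it covered in both fiber libraries, where 31.4% of all genes did. Every member has an island, and of the 14147 genes with one, 1499 had the start covered in both epithelium libraries and 6887 in both fiber libraries. When all annotated starts of protein-coding transcripts were counted, 5 members had one covered in both epithelium libraries and 8 in both fiber libraries. The share over all genes is not given here for this count, and genes with more starts have more chances to be counted.

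The DNA just before the start is shown for 4 members whose promoters differ in island cover. Each stretch runs from the upstream end of a RefSeq promoter (GRCm38.p6) up to the first base that an annotated exon of the gene holds, written 5′ to 3′ on the strand of the gene with CG dinucleotides in capitals. *Jag1* (chr2:137116645-137116770, minus strand) has its promoter inside an island in all 4 libraries, *Notch3* (chr17:32166891-32167140, minus strand) and *Rbpj* (chr5:53590096-53590213, plus strand, an internal promoter 124 kb into the gene, after exons of longer transcripts) in both fiber libraries only, and *Notch2* (chr3:98013288-98013526, plus strand) in none.
Jag1: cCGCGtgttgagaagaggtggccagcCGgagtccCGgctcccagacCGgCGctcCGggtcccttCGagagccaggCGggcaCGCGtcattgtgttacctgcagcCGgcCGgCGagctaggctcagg
Notch3: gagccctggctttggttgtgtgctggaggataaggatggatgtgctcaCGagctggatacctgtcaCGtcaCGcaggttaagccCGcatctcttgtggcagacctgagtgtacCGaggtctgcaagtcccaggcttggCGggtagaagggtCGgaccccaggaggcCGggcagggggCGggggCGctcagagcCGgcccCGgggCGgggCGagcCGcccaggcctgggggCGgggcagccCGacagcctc
Rbpj: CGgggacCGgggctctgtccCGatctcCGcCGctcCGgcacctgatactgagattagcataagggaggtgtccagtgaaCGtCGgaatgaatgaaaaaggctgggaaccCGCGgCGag
Notch2: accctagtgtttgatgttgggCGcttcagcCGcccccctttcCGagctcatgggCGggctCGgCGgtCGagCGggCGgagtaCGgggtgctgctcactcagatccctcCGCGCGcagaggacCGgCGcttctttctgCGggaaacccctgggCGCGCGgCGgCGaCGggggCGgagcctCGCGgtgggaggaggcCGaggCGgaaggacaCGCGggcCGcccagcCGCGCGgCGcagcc
The table of promoters holds 8 of the 10 members and not *Hes1* or *Hey1*. In the 250 bases before the start, the *Notch2* promoter has 34 CG dinucleotides, more than 96.5% of the 32851 promoters of the table, yet it touched no island. *Jag1* has 20, *Notch3* 17 and *Rbpj* 21, and the median promoter has 6. The most CG-rich promoter of the members is that of *Jag2* with 54, and it was inside an island in fiber replicate 1 alone. Both promoters of *Dll1* and the only promoters of *Notch1* and *Maml1* were inside an island in all 4 libraries, whereas 10.3% and 11.8% of all promoters were in the epithelium libraries and 30.6% and 34.5% in the fiber libraries. The letters GTGGGAA, a core to which Rbpj can bind, and their reverse complement TTCCCAC were looked for on both strands in the 250 bases before and 50 bases after the start. None of the 10 promoters of the 8 members holds them, against 6.38% of all promoters. So few promoters cannot be told apart from that share, and *Hes1* and *Hey1* were not searched.

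*Jag1*, the ligand tied to secondary fiber cells, had the largest mean gain of the set, 66.7 percentage points, close to 65.5 for *Hey1*. Without flanks the gain of *Hey1* was the larger, 94.3 against 68.6 percentage points. Its window of 45.2 kb (gene at chr2:137081456-137116644, minus strand) was 29.7% and 24.8% covered in epithelium replicates 1 and 2 and 92.4% and 95.5% covered in fiber replicates 1 and 2. In both fiber libraries a single island of 47800 or 48800 bp ran from upstream of the start, over every exon and intron, and past the 3′ end of the gene. Epithelium replicate 1 instead had 2 islands, of 4400 bp over the start and 9000 bp in the first part of the gene. Epithelium replicate 2 had 4, of which the longest had 3600 bp and lay over the start. The stretch common to all 4 libraries comprised 3600 bp over the start and 2200 bp of intron between 5.04 and 7.24 kb. The islands were also denser in fibers, with 28.0 and 29.6 reads per kb in epithelium and 37.7 and 38.6 reads per kb in fibers, and 96.5% and 96.1% of all fiber islands were less dense than that of *Jag1*.

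*Jag2* encodes a second Jagged ligand. Its window (gene at chr12:112907819-112929776, minus strand) was 0% and 11.2% covered in epithelium and 48.7% and 26.3% in fibers, which is a gain in every pairing of libraries but with fiber replicates that differed by more than the gap between the lower fiber and the higher epithelium value. Fiber replicate 1 had 1 island of 11800 bp across the start, while fiber replicate 2 had 2 islands of 4200 bp, one upstream and one downstream of the start with a gap over it. Epithelium replicate 2 had 1000 bp upstream of the start and 3000 bp beyond the 3′ end, and the latter lay in no fiber island. The upstream end of the window holds 486 bp of the 3′ end of *Nudt14*.

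*Dll1*, a ligand of the Delta family, lies at chr17:15367354-15376872 on the minus strand. The covered share of its window was 18.4% and 27.7% in epithelium and 50.6% and 49.6% in fibers. Every library had an island over the start, of 3600 and 5400 bp in epithelium and 8200 and 10800 bp in fibers, so the fiber libraries showed the same position with a wider island. The upstream side of these islands also holds *A930024N18Rik*, a lincRNA on the opposite strand, and the 2 genes cannot be told apart there. Read density overlapped, with 24.7 and 27.8 reads per kb in epithelium and 23.8 and 29 reads per kb in fibers.

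*Notch1* was among the most covered members in both compartments. Its window of 68.8 kb (gene at chr2:26457903-26516663, minus strand) was 49.2% and 54.4% covered in epithelium and 83.9% and 79.3% in fibers. The epithelium replicates reached a similar share in different ways, 2 islands with a longest of 25600 bp in replicate 1 and 10 islands with a longest of 9600 bp in replicate 2, while fibers had 4 and 6 islands with a longest of 34000 and 22600 bp. *Notch1* is the only member whose longest island did not separate the compartments. Exons were 91.7% and 87.3% covered in epithelium and 93.2% and 84% in fibers, whereas introns went from 46.6% and 50.4% to 78.4% and 73.2%. The gain therefore fell on introns and flanks. The downstream flank also holds *0610009E02Rik*, a transcript on the opposite strand that overlaps 6488 bp of the window. Cover there cannot be given to *Notch1* alone. The RefSeq start lies 12.8 kb downstream of the 5′ end of the annotated gene, and a run of 7000 bp around it, from 11.5 to 18.5 kb, was covered in all 4 libraries.

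*Notch2*, in contrast, had no island at its start and little cover over its exons. Its window of 147 kb (gene at chr3:98013527-98150361, plus strand) was 1.5% and 7.22% covered in epithelium and 28.9% and 24.2% in fibers. No island touched the start, and the first island in every library lay in the first part of the gene, with 2200 bp of intron between 11.5 and 13.7 kb covered in all 4 libraries. Fibers had 7 and 6 islands, none longer than 8800 bp, which kept to the first 96.5 kb of the gene and left its 3′ part without an island. Exons were 0% covered in epithelium and 5.68% and 3.96% in fibers. The single island of epithelium replicate 1 was dense, at 38.2 reads per kb, against 23.4 in epithelium replicate 2 and 26.9 and 28.6 in fibers, so density did not separate the compartments.

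*Notch3* gained islands inside the gene that epithelium did not have at all. Its window of 56 kb (gene at chr17:32120820-32166852, minus strand) was 1.04% and 8.53% covered in epithelium and 59.9% and 52.8% in fibers. Both epithelium islands lay wholly beyond the 3′ end of the gene, where the antisense transcript *Gm17276* starts, so that exons and introns of *Notch3* were 0% covered in both epithelium libraries. In fibers 60.9% and 49.6% of the exons and 59.3% and 52.8% of the introns were covered, by 4 and 5 islands. These included an island over the start, of 7400 bp in replicate 1 and 4800 bp in replicate 2, and one over the 3′ end, of 24800 and 17400 bp. Reads per kb were alike, with 29.5 and 30 in epithelium and 28.9 and 30.5 in fibers. As *Gm17276* overlaps 26024 bp of the window, the cover of the 3′ part cannot be given to *Notch3* alone.

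*Rbpj*, the DNA-binding effector common to all Notch receptors, had the lowest cover. Its window of 201 kb (gene at chr5:53466152-53657362, plus strand) had no island in either epithelium library and was 5.37% and 11.3% covered in fibers. Fiber replicates 1 and 2 had 2 and 5 islands, and the longest of each, of 5800 and 11400 bp, began 120 to 121 kb into the annotated gene. At that place 4 protein-coding transcripts and both RefSeq promoters start, so the promoter printed above was inside a fiber island although the 5′ end of the gene was not. In both fiber libraries *Rbpj* ranked near the middle of all genes, above 50.6% and 54.2% of them, and its islands held 23.5 and 25.4 reads per kb, under the library medians of 27.4 and 27.5. It is also the member with the most repeated sequence, as 3.21% of the 75-nt stretches of its window, the length of a read, occur more than once in the genome. For the other members this share was at most 1.05%.

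*Maml1* encodes the Mastermind coactivator that binds the complex of Notch and Rbpj. The covered share of its window (gene at chr11:50255634-50292311, minus strand) was 8.57% and 9% in epithelium and 47.4% and 36.4% in fibers. An island lay over the start in all 4 libraries, with 2200 bp common to all. The other fiber islands were spread along the gene, and their positions differed between the replicates, since only 22.6% of the fiber bases were shared by both fiber libraries. This was the lowest share of the members. The upstream flank also holds 3351 bp of the 3′ end of *Canx*, which encodes an endoplasmic reticulum chaperone, and the window holds 38206 bp of the antisense transcript *Gm26542*.

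*Hes1*, the best known target of the pathway in many tissues, was covered over its whole body in every library. The window of 13.4 kb (gene at chr16:30064384-30067796, plus strand) was 44.7% and 61.1% covered in epithelium and 90.9% and 94.1% in fibers, by 1 island per library of 6000, 8200, 12400 and 13600 bp. All of the difference lay in the flanks, because without them the gene was fully covered in all 4 libraries and the difference was 0. Epithelium and fiber islands had 30.5, 27.4, 32.2 and 31.8 reads per kb.

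*Hey1*, a second target and a repressor related to Hes1, was near empty in epithelium. The window (gene at chr3:8663359-8667256, minus strand) was 0% and 11.5% covered in epithelium and 63.3% and 79.1% in fibers. The only epithelium island, of 1600 bp, overlapped the 3′ end, whereas the fiber islands of 8800 and 11000 bp held the start and the entire gene. Without the flanks the difference rose to 94.3 percentage points.

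**Figure D3:**
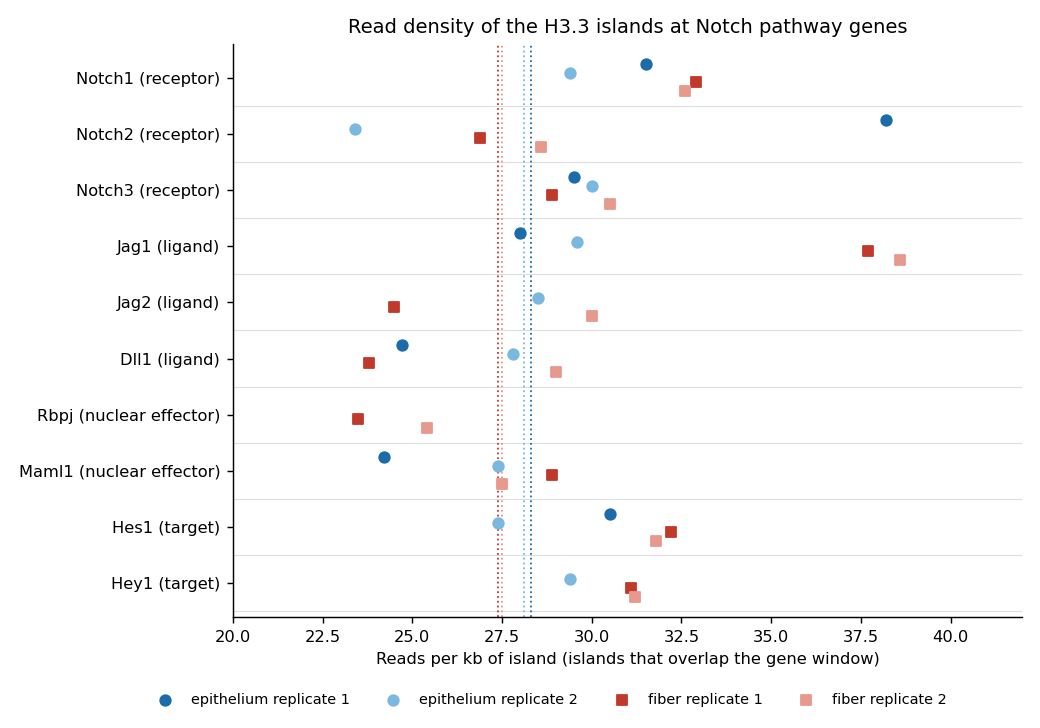
Reads per kb of the islands that overlap each gene window, with 1 point per library and the median island density of each library as a dotted line, on an axis that starts at 20. The *Jag1* fiber points at 37.7 and 38.6 reads per kb stand apart from its epithelium points at 28.0 and 29.6, whereas the points of *Notch2*, *Notch3*, *Dll1* and *Jag2* overlap.

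Density, in contrast to cover, changed little. Of the 7 members with an island in all 4 libraries, 4 (*Jag1*, *Notch1*, *Maml1* and *Hes1*) had more reads per kb in both fiber libraries, none had fewer and 3 overlapped. Over all 5246 genes with islands in all 4 libraries, 30.8% were denser in both fiber libraries and 16.3% less dense. The library medians were 28.3 and 28.1 reads per kb in epithelium and 27.4 and 27.5 in fibers. For *Maml1* the gap was between 27.4 and 27.5 reads per kb and for *Notch1* between 31.5 and 32.6, while for *Jag1* it was between 29.6 and 37.7. The longest island was longer in both fiber libraries for 9 members, against 44.2% of all genes, or 9693 of the 14147 genes with an island.

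By part of the gene, the 50000 bp upstream of the members were 12.3% and 11.8% covered in epithelium and 55.1% and 61.1% in fibers. Exons were covered to 23.7% and 26.1% in epithelium and to 58.3% and 44.2% in fibers, and introns to 7.91% and 10% and to 33.6% and 33.3%. Downstream flanks showed the largest spread between epithelium replicates, with 5.57% and 29.4%, against 52.8% and 50% in fibers.

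**Figure D4:**
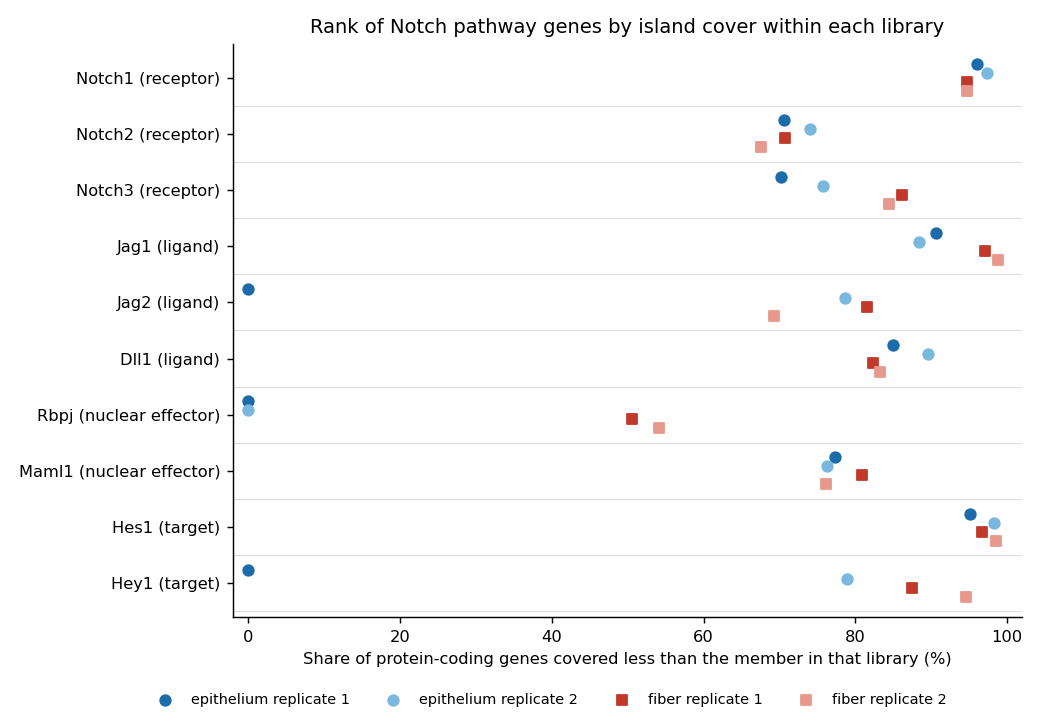
Rank of each member within each library, as the percentage of all protein-coding genes with a smaller covered share, with 1 point per library. *Jag1* moves from 90.6 and 88.4 in epithelium to 97.1 and 98.8 in fibers, whereas *Notch1* and *Dll1* rank lower in both fiber libraries than in both epithelium libraries. Genes without an island tie at the bottom, and more genes do so in epithelium.

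Because fiber libraries had more islands throughout the genome, the members were also ranked among all genes of the same library. Genes without an island tie at the bottom of this ranking. An island was present at 30.4% and 35.4% of genes in epithelium and at 54.5% and 60.7% in fibers, so even a small island starts from a higher rank in epithelium. A lower rank in fibers therefore need not mean a lower place among the genes with an island. *Jag1* was above 90.6% and 88.4% of genes in epithelium and above 97.1% and 98.8% in fibers, and *Notch3* rose from 70.2% and 75.8% to 86.1% and 84.5%. *Hey1* rose from 0% and 78.9% to 87.4% and 94.6%. *Notch1* stood above 96% and 97.3% of genes in epithelium and above 94.7% in both fiber libraries, and *Dll1* above 85% and 89.6% and then 82.3% and 83.2%, so their ranks were lower in both fiber libraries. For *Notch2*, *Jag2*, *Maml1* and *Hes1* the ranks of the compartments overlapped. *Rbpj* had no rank above any gene in epithelium.

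The cover was then tested in a fit across all genes, with limma on the arcsine square root of the covered share and Benjamini-Hochberg adjustment over the 14147 genes with an island. In this fit 8 of the 10 members were called higher in fibers at an adjusted p under 0.05, where 35.9% of all genes tested were. One of the 8, *Rbpj*, had no island in epithelium and passed the filter through fibers alone, so its call (limma adjusted p = 0.0358) says no more than that. Of the 9 members with an epithelium island 7 were called, against 24.9% of the 9013 genes with one. *Jag1* differed by 0.775 ± 0.0703 (SE) on that scale (limma adjusted p = 0.0157), *Notch3* by 0.65 ± 0.0971 (0.0244), *Maml1* by 0.403 ± 0.0689 (0.0299) and *Hes1* by 0.48 ± 0.0894 (0.0341). For *Hey1*, *Notch1* and *Notch2* the limma adjusted p lay between 0.0361 and 0.0458, and *Hey1* had the largest difference of the members, 0.835 ± 0.161. *Dll1* (0.287 ± 0.0743, limma adjusted p = 0.0612) and *Jag2* (0.485 ± 0.167, limma adjusted p = 0.105) did not pass. These calls rest on all 4 libraries. All of them were lost when epithelium replicate 1 or epithelium replicate 2 was left out, and most when either fiber replicate was. Such fits leave 1 library in a compartment, so only their differences are given. The difference of every member stayed positive in them, from 0.232 (*Dll1*, without epithelium replicate 1) to 1.01 (*Hey1*, without epithelium replicate 2). With 1 fiber library the fits had almost no spread for *Rbpj*, whose epithelium values are both 0. They had little for *Maml1*, whose epithelium values, 8.57% and 9%, lay close together. The fiber libraries were higher over all genes as well, with a mean covered share of 21% and 20.9% against 7.4% and 7.66% in epithelium. After each library's mean over all genes had been subtracted, limma called 0% of the 14147 genes, with 3752 at an unadjusted p under 0.05. Of the members *Jag1* (0.452 ± 0.0889), *Hey1* (0.512 ± 0.15) and *Notch3* (0.326 ± 0.101) were at an unadjusted p under 0.05, with limma adjusted p of 0.119, 0.148 and 0.157. The sign of the centred difference for *Jag1* turned on a scale of log2 covered bp. How far the number of islands and the unknown depth account for the gain in fibers was not tested. When the same number of islands, 10389, was kept from every library by density, 6 members were covered more in both fiber libraries and 1, *Dll1*, less, against 15.6% and 4.84% of all genes. These shares are 3425 and 1062 genes, and 11410 genes kept an island in that setting. When they were kept by read count, 8 were covered more and none less, against 21.4% and 3.08%. These shares are 4704 and 675 genes, and 10411 genes kept an island there. Limma called no member in either of these settings, with 5 at an unadjusted p under 0.05 in each.

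The wider pathway was described with 57 further genes in 9 roles. Of these, 43 were covered more in both fiber libraries, 1 less, 10 overlapped and 3 had no island in any library, with a median gain of 18.2 percentage points. The share covered more was 45% over all genes and 69.8% over those with an island, with which the 43 of 54 listed genes that had an island, and the counts by role, have to be compared. Of those 54, 12 had islands in fiber libraries only, as did 5134 of the 14147 genes with an island. None of these could be covered less in fibers. In limma 23 of the 54 with an island were called higher and none lower, where 35.9% of all genes tested were called higher, and none was called after library means had been subtracted. Of the 23, 10 had no island in epithelium and passed the filter through fibers alone, and among the 42 listed genes with an epithelium island 13 were called, against 24.9% of all such genes. The receptor *Notch4*, which is known from blood vessels, was 8.48% and 19.9% covered in epithelium and 31.8% and 28.3% in fibers, and its start was in no island.

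The remaining Delta ligands did not follow *Jag1*, *Jag2* and *Dll1*. *Dll3* was 34.5% and 33.4% covered in epithelium and 39.6% and 31.2% in fibers. *Dll4* was 30.8% and 23.8% covered in epithelium and 18.8% and 37.7% in fibers, so that the compartments overlapped for both. Among the ubiquitin ligases that make ligands competent to signal, *Mib2* gained most, from 50.3% and 38% to 80.4% and 69.8%, and 2 of 4 were covered more. *Neurl1b* had 6.26% and 19.6% in epithelium and 8.07% and 7.58% in fibers.

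Enzymes that put sugars on the receptor were covered more in 4 of 5 cases. *Poglut1*, a glucosyltransferase, had no island in epithelium and 20.5% and 49% in fibers. *Mfng*, a Fringe enzyme, had 22.9% and 36.5% in epithelium and 34.3% and 32.2% in fibers. Of the 10 proteases that cut the receptor or belong to a complex that does, 9 were covered more and 1 overlapped. Among the 9, *Adam10*, *Ncstn*, *Aph1b* and *Aph1c* had no island in epithelium and could not be covered less. *Psenen*, the smallest subunit of gamma-secretase, had the largest gain of the whole list, from 22.1% in both epithelium libraries to 100% and 93.2%. The gene has 1765 bp in a window of 11765 bp, and its longest fiber islands had 20600 and 12400 bp. Neighbouring genes were not looked at in the wider list, so this cover cannot be given to *Psenen* alone. *Aph1c*, another subunit, had no island in epithelium and 10.1% and 12.1% in fibers.

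Of the 7 other nuclear effectors 6 were covered more. *Maml3* went from 4.47% and 6.8% to 34.2% and 32.7%, while *Snw1* had an island in fiber replicate 1 alone, with 20.3% covered. Among the 9 corepressors, which keep targets silent when Notch is off, 8 were covered more. *Ctbp2* rose most, from 25.5% and 23.8% to 85.5% and 87.5%. *Cir1* had no island in epithelium and 6.06% and 5.56% in fibers, and *Hdac2* had none in any library.

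The 12 antagonists and turnover factors were the most mixed group, with 7 covered more, 1 less, 2 overlapping and 2 without an island, *Dtx3l* and *Dlk1*. *Dtx3* rose from 41.8% and 20.8% to 94.8% and 100%. *Dtx1*, by contrast, had 38.3% and 33.1% in epithelium and 26.4% and 32.6% in fibers, the one gene of the list that was lower in both fiber libraries. Of the 7 other Hes and Hey genes 6 were covered more. *Hes2* went from 0% and 27.9% to 52.4% and 46.6%, and *Heyl* had 41.8% and 14.6% in epithelium and 34.2% and 9.12% in fibers.

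**Figure D5:**
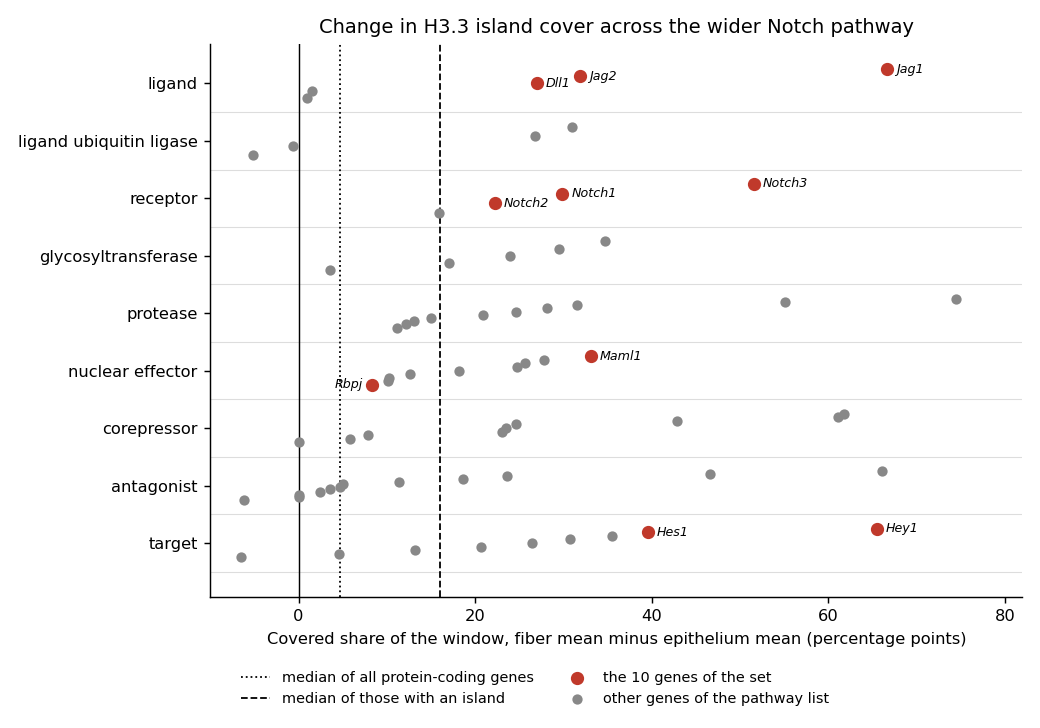
Difference in the covered share of the window, fiber mean minus epithelium mean in percentage points, for the 10 genes of the set and the 57 other pathway genes by role, with the median of all protein-coding genes (4.72) as a dotted line and that of the genes with an island (16) as a dashed line. Red points mark the members, of which *Jag1* at 66.7 and *Hey1* at 65.5 lie farthest to the right.

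Several pathway genes are also active in cells that lie next to the lens, so markers of such cells were looked at in the same way. Of 7 endothelial markers, 2 had an island in each epithelium library and 3 in each fiber library, covering 9.6 and 5.8 kb in all in epithelium and 27 and 18.6 kb in fibers. *Kdr*, *Tek*, *Tie1* and *Emcn* had no island in any library. The other 3 were covered more in both fiber libraries, with 4.32% and 2.26% in epithelium and 12.6% and 7.52% in fibers for *Pecam1*, 0% and 6.43% against 8.32% and 9.83% for *Cdh5*, and 43.8% and 0% against 80.6% and 47.3% for *Cldn5*. Of 5 macrophage markers, 2 and 3 had an island in epithelium and 3 in each fiber library, covering 13.6 and 34.2 kb and 69.1 and 56.6 kb, and *Ptprc* and *Tyrobp* had none while the other 3 were covered more in both fiber libraries. Of 5 retinal and ciliary margin markers, 3 and 2 had an island in epithelium and 2 and 1 in fibers, covering 20 and 10.2 kb and 20.6 and 26.4 kb. In this list *Rax*, a retinal progenitor factor, was 28.8% and 39% covered in epithelium and had no island in fibers, whereas *Crx*, a photoreceptor factor, had none anywhere. Of 4 erythroid markers *Klf1* alone had islands. The part of such cells in the values of the members was not tested.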

How the data were processed

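Reads of 75 nt had been aligned by the authors to mm10 with BWA. Islands were then called per library with SICER2, with 200 bp windows, gaps up to 600 bp and an FDR of 0.01, as the names of the deposited lists give them. The deposited values are counts of ChIP reads per island, which the authors did not normalize. Use of the pooled input in calling is not given in the sources used here, and the input and the bisulfite libraries were not analysed here.

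Covered share, longest island and reads per kb were computed for the window of each of 21938 protein-coding genes (GENCODE vM21) in Python 3.11.15, and limma 3.58.1 in R 4.3.3 was run with a trend on the covered share. All 10 members are named, and in the wider list the genes of largest and smallest difference per role and those without an island. The members and lists were chosen with earlier results of these data known. Steps were tested on simulated data, in which limma recovered changes only when many genes had changed together and by enough. With 7074 of 14147 genes changed it recovered 0% of differences of 0.3, 78.1% of 0.6 and 89.6% of 1. With 200 genes changed it recovered 0% at each of these sizes. Alternatives changed the flank, the islands kept, the scale, the filter and the libraries.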

Additional observations from a re-analysis of the deposited data

How the results depend on the processing

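The direction of the members' gain in cover held under every alternative except for *Dll1*, whose difference turned to -23.1 percentage points (limma difference -0.499, adjusted p = 0.13) when an equal number of islands was kept from each library by density, and for *Rbpj* (same setting) and *Hes1* (no flank), which came to 0. With that equal number kept by density, 6 members were covered more in fibers, 1 was covered less and 4 had the start covered in both fiber libraries, and in the wider list 18 were covered more and 7 less. With the equal number kept by read count, the wider list had 28 covered more and 6 less. With islands of at least the median density, 1 member had its start covered in both epithelium libraries and 4 in both fiber libraries. For starts in these settings the share over all genes is not given here. Limma called 5 members without flanks, 0 with either equal number of islands (5 and 5 at an unadjusted p under 0.05), 2 with islands of at least the median density and 4 on the scale of log2 covered bp + 200, where the centred *Jag1* difference was -0.79 (limma adjusted p = 0.195). Of all genes tested, it called 3925 of 13391 higher without flanks, 2671 of 11966 at the median density and 4569 of 14147 on that scale.

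When 1 library was left out, limma lost all or most of its member calls. In the wider list 2 to 4 genes were then covered less in fibers. A lone library was assumed to vary like the others, and for *Rbpj*, with both epithelium libraries at 0, that spread is itself close to 0. Same-numbered libraries did not deviate together (correlation -0.003 over 14147 genes). With 2 libraries per compartment this cannot settle whether same-numbered libraries came from the same lenses, so pairing remains unknown. With a replicate block limma called 0 members (8 at an unadjusted p under 0.05), and the wider list had 3 genes covered less. The block left 10 members covered more, and the wider list was added to these alternatives after seeing the data. Unknown depth and 2 libraries per compartment limit all of these values.

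Over all genes limma called 5074 higher and 37 lower in fibers, and 2671 and 44 with islands of at least the median density. It called none with an equal number of islands kept by density or by read count (2237 and 3052 at an unadjusted p under 0.05), with the replicate block (6565) or without epithelium replicate 1 or 2 (5483 and 5867). With library means subtracted it called none (3752 at an unadjusted p under 0.05), but 101 higher and 362 lower among genes with an island in at least 2 libraries, 574 and 1752 without fiber replicate 1, and 878 and 2728 without fiber replicate 2. Among the calls made with library means subtracted there was no member in any of these 3 settings.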
